A study of Mus musculus with 23 samples.

Results

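The mRNAs of 10 chemokine ligands, Ccl2, Ccl3, Ccl4, Ccl6, Ccl7, Ccl9, Ccl12, Cxcl2, Cxcl10 and Cxcl16, were followed in microglia, the resident macrophages of the brain. These 10 genes were chosen by symbol, among the 53090 genes of each deposited table, and all 10 passed the filter on low counts that left 18720 genes for testing. RNA came from 23 libraries of brain microglia from female C57BL/6 mice without a stated genetic change. The labels name 4 groups: Y (young, n = 7), Y-re (young repopulated, n = 3), O (old, n = 5) and O-re (old repopulated, n = 8), where the suffix is read here as repopulated. Microglia need the growth factor receptor CSF1R to survive, and repopulated mice had received the CSF1R inhibitor PLX5622 at 1200 ppm in AIN-76A chow, after whose withdrawal new microglia fill the brain. Per the labels' protocols, treatment controls ate the same chow without drug. Ages, treatment length and the time allowed for refilling are not given in the sources used here. No label states whether each library came from a separate mouse, so the p-values below measure the spread between these libraries, which may in part be technical.

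Chemokines are small secreted proteins that draw leukocytes along a gradient through G-protein-coupled receptors, and the 2 large families are named for the spacing of their first cysteines, CC or CXC. Macrophages and microglia release Ccl3 and Ccl4, which draw monocytes and T cells, and the monocyte-attracting Ccl2, Ccl7 and Ccl12, which bind Ccr2. Ccl6 and Ccl9 bind Ccr1 and exist as such in rodents, Cxcl2 draws neutrophils through Cxcr2, Cxcl10 is an interferon-induced ligand of Cxcr3 on lymphocytes, and Cxcl16 is made as a membrane protein and binds Cxcr6. Many chemokine genes are induced fast by NF-kB, AP-1 or interferon signalling.

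On mouse build GRCm38, 8 of the 10 genes lie on chromosome 11 and the other two on chromosome 5, and all are annotated as protein coding. Ccl2 (chr11:82035571-82037453), Ccl7 (chr11:82045712-82047525) and Ccl12 (chr11:82101845-82103400), all on the plus strand, fall within 67.8 kb. After a gap of 1470 kb follow Ccl9 (chr11:83572919-83578636, minus strand), Ccl6 (chr11:83587882-83593087, minus), Ccl3 (chr11:83647844-83649355, minus) and Ccl4 (chr11:83662584-83664683, plus) within 91.8 kb. Cxcl16 lies apart at chr11:70453983-70459984 on the minus strand. Cxcl2 (chr5:90903871-90905938, plus) and Cxcl10 (chr5:92346638-92348889, minus) are the chromosome 5 genes.

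RefSeq promoter windows (GRCm38.p6) were matched by symbol for 6 of the 10 genes: Ccl3, Ccl6, Ccl9, Ccl12, Cxcl2 and Cxcl10. From library to library the mRNA of Ccl12 varied with those of Ccl3 and Cxcl10, and separately Ccl6 with Ccl9. The stretches that end at the base before the RefSeq start are printed for these 5 genes, 250 bases for Cxcl10 and 150 for the others. They lie at chr11:83649379-83649528, minus strand (Ccl3), chr11:82101695-82101844, plus strand (Ccl12), chr5:92348890-92349139, minus strand (Cxcl10), chr11:83593088-83593237, minus strand (Ccl6) and chr11:83578637-83578786, minus strand (Ccl9). Each is written 5′ to 3′ on the strand of its gene, and capitals mark matches to the motifs searched.
Ccl3: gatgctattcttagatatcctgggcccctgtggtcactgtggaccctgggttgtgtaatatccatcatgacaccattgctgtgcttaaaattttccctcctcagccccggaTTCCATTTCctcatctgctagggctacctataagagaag
Ccl12: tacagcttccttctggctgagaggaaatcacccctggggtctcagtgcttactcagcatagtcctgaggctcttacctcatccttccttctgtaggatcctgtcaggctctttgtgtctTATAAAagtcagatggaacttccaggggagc
Cxcl10: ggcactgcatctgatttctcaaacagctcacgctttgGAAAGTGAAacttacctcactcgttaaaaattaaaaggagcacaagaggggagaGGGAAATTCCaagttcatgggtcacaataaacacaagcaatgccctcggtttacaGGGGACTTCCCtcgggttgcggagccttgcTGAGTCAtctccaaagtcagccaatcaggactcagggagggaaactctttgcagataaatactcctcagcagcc
Ccl6: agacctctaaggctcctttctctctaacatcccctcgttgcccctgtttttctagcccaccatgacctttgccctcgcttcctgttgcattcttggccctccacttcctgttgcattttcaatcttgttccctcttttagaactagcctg
Ccl9: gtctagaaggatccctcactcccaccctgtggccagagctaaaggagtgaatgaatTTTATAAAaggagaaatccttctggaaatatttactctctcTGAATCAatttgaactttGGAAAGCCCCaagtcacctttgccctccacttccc
The motifs, searched on both strands of the 250 bases before the start, were the NF-kB consensus, the AP-1 site TGANTCA, the interferon response core TTCNNTTTC, the STAT core TTCNNNGAA, the TATA box TATAAA and the CRE TGACGTCA. Matches may overlap, as the NF-kB matches of Cxcl10 and Cxcl2 do with themselves. Counted from the start, where -1 is the base before it, Cxcl10 held an interferon response core at -213 to -205, NF-kB matches at -159 to -150 and within -104 to -94, and an AP-1 match at -74 to -68. Ccl3 held 1 interferon response core at -39 to -31, Ccl12 a TATA box at -31 to -26, and Ccl9 an AP-1 match at -53 to -47 and an NF-kB match at -35 to -26. Cxcl2 held NF-kB matches within -97 to -87, and Ccl6 held no match. An NF-kB match stood in 3 of the 6 windows and in 7.01% of 27025 mouse promoter windows, AP-1 in 2 (6.87%), the interferon response core in 2 (7.16%), the TATA box in 2 (13%), and STAT (7.18%) and CRE (1.62%) in 0 of 6. A match is a run of letters and no evidence of binding.

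Library totals ranged from 43.66 to 58.19 M (mega) counts per library. The library numbers in the sample titles were split here into 1 to 11 (3 young, 2 old, 5 old repopulated) and 12 to 24 (4 young, 3 young repopulated, 3 old, 3 old repopulated). This boundary was set here and not taken from the labels. It lies where the order of the groups starts again with young, at 12. Libraries 1 to 11 had fewer genes with a count (18898 ± 973, SD, n = 10) than libraries 12 to 24 (21012 ± 1202, n = 13). What the numbers stand for was not given, so they are called runs of library numbers here. All 9 microglia markers were detected in every group, but their summed level ran from 20800 to 25093 CPM (counts per M, TMM-scaled) in young libraries, 17380 to 20213 in young repopulated, 7304 to 20736 in old and 7097 to 22820 in old repopulated. The 8 monocyte markers summed to 37.9 to 274 CPM in young, 155 to 355 in young repopulated, 161 to 2353 in old and 118 to 2872 in old repopulated libraries, and the 7 markers of border-associated macrophages to 55.5 to 214, 291 to 397, 183 to 862 and 70.9 to 1188 CPM. T and NK cell markers summed to at most 2.44 CPM in any library. The 9 neutrophil markers summed to 486 to 643 CPM in young, 546 to 647 in young repopulated, 427 to 671 in old and 265 to 698 in old repopulated libraries. Their sum did not rise with the single neutrophil markers called below, with medians of 534 CPM in young and 476 in old repopulated libraries. In old repopulated against young libraries 7 of 8 monocyte, 5 of 7 border-associated macrophage and 4 of 9 neutrophil markers rose, and 4 of 9 microglia markers (P2ry12, Fcrls, Olfml3 and Sparc) fell, by the test used below. In old against young libraries 6 of 8 monocyte, 4 of 9 neutrophil and 3 of 7 border-associated macrophage markers rose and 1 of 9 microglia markers (Fcrls) fell. Of all genes 15.2% were called in the former comparison and 2.83% in the latter. The part of these marker shifts in the results below was not tested, and in such bulk samples fewer cells of a type and less RNA per cell cannot be told apart.

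Per transcript length, Ccl3 and Ccl4 were the most abundant of the 10 ligands in all 4 groups. In young libraries the deposited TPM values (transcripts per M) were 1888 ± 311 (SD, n = 7) for Ccl4 and 1861 ± 334 for Ccl3, which overlapped, and the lowest of these lay above every Ccl12 value (341 ± 49.8). Below them the order of the young group was Ccl12, Cxcl10 (279 ± 66.9), Ccl6 (240.3 ± 33.8), Cxcl16 (228 ± 30), Cxcl2 (181 ± 46.1), Ccl9 (177 ± 27.1) and Ccl2 (132 ± 28), with each neighbour overlapping the next. Ccl7 was lowest at 19.3 ± 6.62 TPM, below every Ccl2 value.

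The order shifted in the other groups, with Ccl3 and Ccl4 still first. In young repopulated libraries Cxcl16 (279 ± 33.2 TPM, n = 3) came next and Cxcl10 (123 ± 12.5) dropped toward the end, overlapping Ccl9 and Ccl2. In old libraries Ccl6 was next (367 ± 153, n = 5) and Ccl7 was lowest (85.8 ± 50.8), overlapping Cxcl2. In old repopulated libraries Cxcl2 (389 ± 285, n = 8) followed Ccl4, Cxcl10 was lowest (149 ± 63.7), and every gene overlapped its neighbour. Together the 10 ligands took 0.535% ± 0.0708 of all TPM in young, 0.356% ± 0.0505 in young repopulated, 0.551% ± 0.192 in old and 0.397% ± 0.0984 in old repopulated libraries. Ccl3 with Ccl4 supplied 63.5 to 73.4% of the ligands' TPM in young libraries and 22.8 to 70.5% in old repopulated ones.

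**Figure D1:**
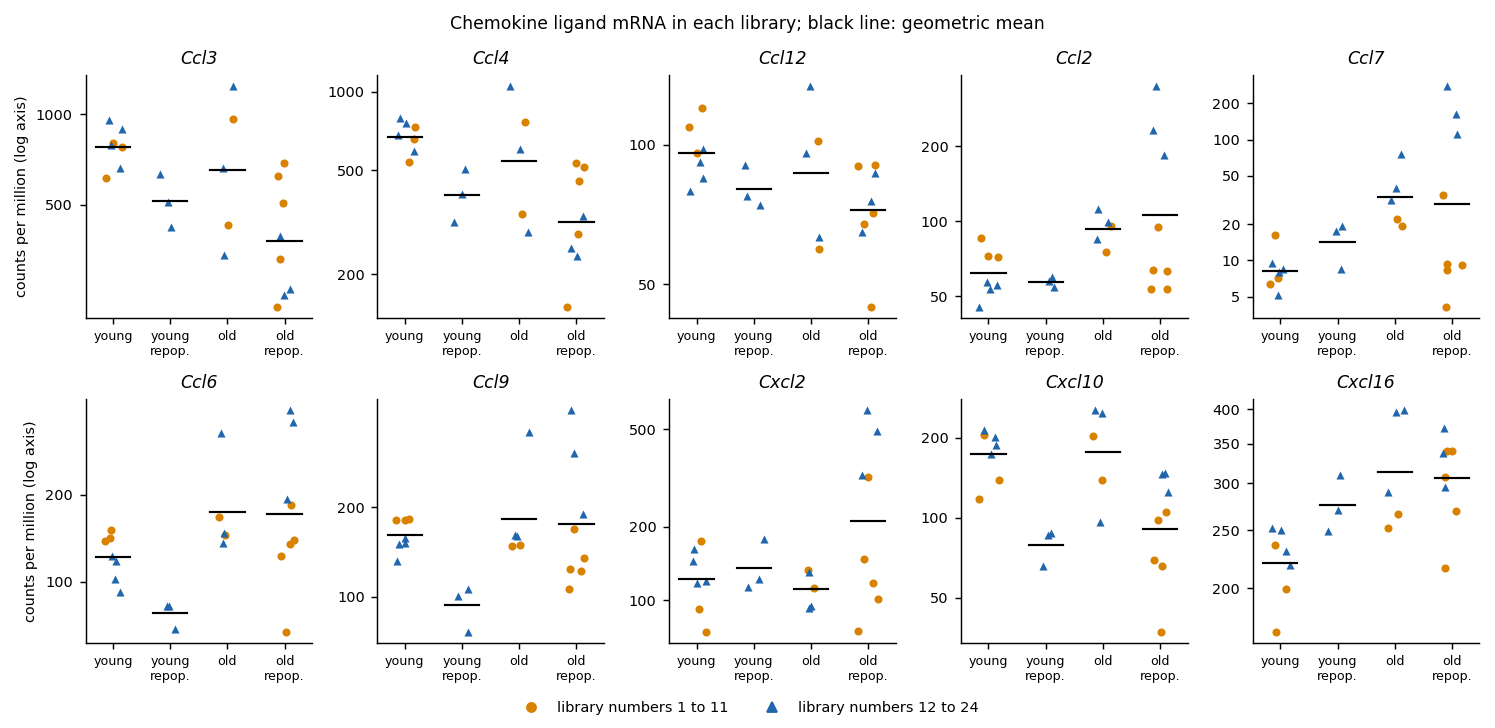
TMM-scaled counts per M (log axis) of the 10 ligands in each of the 23 libraries, by group, with circles for library numbers 1 to 11, triangles for 12 to 24 and a black line for the geometric mean. Ccl2, Ccl7 and Cxcl2 reach their highest values in old repopulated libraries of numbers 12 to 24, and all 8 old repopulated libraries lie below all 7 young ones for Ccl4.

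Among the pairwise comparisons, the ligands differed most between old repopulated and young libraries. There 7 of the 10 passed edgeR's quasi-likelihood test (called: adjusted p under 0.05, Benjamini-Hochberg over 18720 genes), beside 15.2% of all genes: Ccl2, Ccl7, Cxcl2 and Cxcl16 were higher and Ccl3, Ccl4 and Cxcl10 lower. The median log2 fold change of the 10 was 0.38, against -0.02 for all genes. In old against young libraries 1 ligand, Cxcl16, was called, beside 2.83% of all genes. Without the 3 old repopulated libraries of numbers 12 to 24, 1 ligand (Cxcl10, -1.24 ± 0.25, adjusted p = 0.0123) was called for old repopulated against young, beside 3.91% of genes, and 3 (Ccl7 2.1 ± 0.43, Ccl2 0.56 ± 0.15 and Cxcl16 0.52 ± 0.13) for old against young, beside 3.96%.

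No ligand was called for young repopulated against young libraries (1.34% of all genes were), nor for old repopulated against old (0.278%). At an unadjusted p under 0.05 edgeR gave 2 ligands (Ccl9 and Cxcl10) in the former and 4 (Ccl3, Ccl4, Cxcl2 and Cxcl10) in the latter. In young repopulated against young, DESeq2 called 1, weighted voom 3 and edgeR on the libraries of those groups alone 5. In old repopulated against old, DESeq2 called 2 and voom 0. Without the 3 old repopulated libraries of numbers 12 to 24, edgeR called 1 ligand there, Cxcl10 (-1.31 ± 0.27, adjusted p = 0.0462), beside 0.324% of genes, and the values of Ccl2 and Ccl7 turned from 0.55 and 1.04 to -0.51 and -1.52, not called under either setting. For old repopulated against young repopulated edgeR called 0 ligands and 0% of all genes, with 4 ligands and 2183 genes at an unadjusted p under 0.05. There DESeq2 called 1 ligand and voom 4. The interaction term, the change with repopulation in old mice minus that in young mice, gave 0 ligands and 0% of genes in edgeR, 0 ligands and 1542 genes at an unadjusted p under 0.05, and 0 ligands in DESeq2 and in voom. Comparisons that share the young or the old libraries are not independent of each other.

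**Figure D2:**
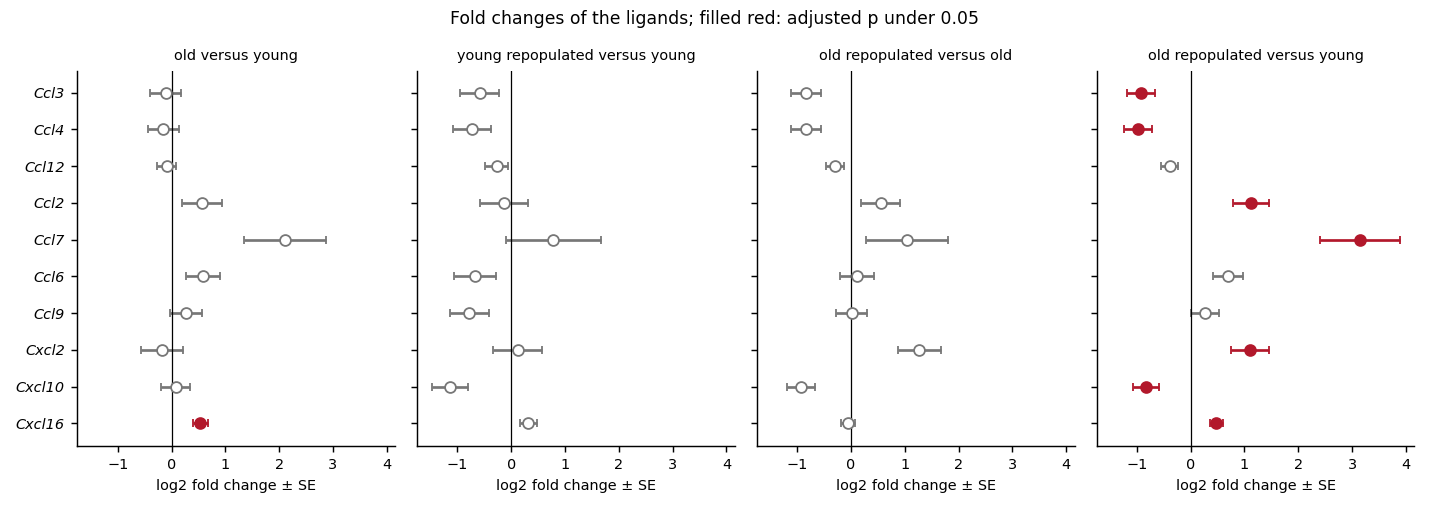
Log2 fold changes with standard errors from edgeR (x axis) of the 10 ligands (y axis) in 4 comparisons, filled red where the adjusted p over all genes is under 0.05. Cxcl16 alone is filled for old versus young, none in the 2 middle panels and 7 for old repopulated versus young.

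The macrophage inflammatory proteins Ccl3 and Ccl4 were lower in old repopulated than in young microglia. Ccl4 ran from 536 to 791 CPM (median 685) in the 7 young libraries, stood at 404, 317 and 505 in the 3 young repopulated and at 762, 339, 291, 1055 and 603 in the 5 old libraries, and ran from 150.1 to 531 (median 309) in the 8 old repopulated. All 8 old repopulated and all 3 young repopulated libraries lay below all young ones, while the old libraries fell on both sides. Against young, Ccl4 fell by 0.98 ± 0.26 (SE, log2; adjusted p = 0.0141) in old repopulated libraries. Ccl3 ran from 615 to 953 CPM (median 792) in young and from 229 to 690.0 (median 363) in old repopulated libraries, 6 of 8 of which were below every young library, and fell by 0.93 ± 0.26 (adjusted p = 0.0187). Its young repopulated values were 510.2, 420.1 and 631 CPM, and its old values 967, 428, 341, 1244 and 660.5. Both calls held in all 23 fits that left out 1 library. They were lost within library numbers 1 to 11 and without the 3 old repopulated libraries of numbers 12 to 24, with log2 values of -0.61 and -0.72 for Ccl3 and of -0.72 and -0.81 for Ccl4.

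In the other comparisons edgeR over all libraries made no call for this pair. In old repopulated against old the log2 value was -0.83 ± 0.28 for each gene (adjusted p = 0.226 for both), and in young repopulated against young it was -0.59 ± 0.36 for Ccl3 (0.464) and -0.73 ± 0.36 for Ccl4 (0.338). In the latter comparison edgeR on those groups alone called Ccl3 (-0.58, adjusted p = 0.0334) and Ccl4 (-0.72, adjusted p = 0.0125), and voom called Ccl4 (adjusted p = 0.0412). Within library numbers 12 to 24 edgeR called neither gene in it. Old against young gave -0.11 ± 0.29 for Ccl3 and -0.15 ± 0.29 for Ccl4, with the old libraries spread more widely than the young.

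Of the Ccr2 ligands, Ccl7 showed the widest range. Its level was 5.21 to 16.2 CPM (median 8.02) in young libraries and 19.1, 8.44 and 17.4 in young repopulated ones. Old libraries held 19.1, 22, 76.1, 31.4 and 40.1 CPM, all above all young ones, but at log2 2.11 ± 0.76 the difference was not called by edgeR over all libraries (adjusted p = 0.158). It was called for Ccl7 by edgeR on the young and old libraries alone (2.11 ± 0.34, adjusted p = 0.0086) and without the 3 old repopulated libraries of numbers 12 to 24 (2.1 ± 0.43, adjusted p = 0.01). Old repopulated libraries 1 to 5, of numbers 1 to 11, held 4.14, 9.21, 9.31, 8.33 and 34.6 CPM, and libraries 6 to 8, of numbers 12 to 24, held 279.6, 111 and 164. The first set mostly overlapped the young libraries and the second lay above every library of the other groups. Against young, Ccl7 rose by 3.15 ± 0.74 on the log2 scale (adjusted p = 0.00717), and this call held in all 23 fits without 1 library but not without those last 3 libraries (0.58, adjusted p = 0.5).

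Ccl2, the main monocyte attractant of the family, had the same 3 libraries on top. Young libraries held 45.4 to 86 CPM (median 56.8), young repopulated ones 57.6, 54.5 and 59.5, and old ones 95.6, 75.5, 112, 99.2 and 85.2. Old repopulated libraries 1 to 5 held 63, 53.5, 53.6, 63.6 and 94.5 CPM, within or near the young range, and libraries 6 to 8 held 349.9, 184 and 232, above all others. The difference from young was 1.12 ± 0.34 (log2, adjusted p = 0.0297). The call was lost without old repopulated replicate 6 (adjusted p = 0.088), 7 (0.052) or 8 (0.0692), without young replicate 4 (0.0556), 6 (0.056) or 7 (0.0595), and in the fit of only those 2 groups (0.0631). Without replicates 6 to 8 together the value for Ccl2 was 0.05 (adjusted p = 0.901). Ccl12, the other Ccr2 ligand, stood at 79.3 to 119.6 CPM (median 96.1) in young, 74.1, 77.4 and 90.3 in young repopulated, 102, 59.5, 63.1, 134 and 96 in old and 44.7 to 90.3 (median 73.3) in old repopulated libraries. Its difference between old repopulated and young, -0.39 ± 0.16, was not called (adjusted p = 0.0935).

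The Ccr1 ligands Ccl6 and Ccl9 were at their lowest in young repopulated microglia. Ccl6 ran from 92.3 to 151 CPM (median 123) in young libraries and stood at 68.6, 82.4 and 82.1 in young repopulated ones, and Ccl9 ran from 132 to 183 (median 158) and stood at 76.5, 101 and 106. For both, all 3 young repopulated libraries were below all 7 young ones, but edgeR over all libraries called neither (Ccl6 -0.67 ± 0.39, adjusted p = 0.439; Ccl9 -0.78 ± 0.36, adjusted p = 0.303). Both were called by edgeR on those groups alone (Ccl6 adjusted p = 0.019, Ccl9 0.00442), and Ccl9 by voom (adjusted p = 0.0264). Within library numbers 12 to 24, which hold all young repopulated libraries, edgeR called neither. Young libraries of those numbers averaged 109 CPM for Ccl6 and 148 for Ccl9, against 144 and 182 in numbers 1 to 11. Old libraries held 145, 167, 329, 136 and 147 CPM of Ccl6 and 149, 148, 357, 160.4 and 161 of Ccl9, with replicate 3 the highest of both. Old repopulated libraries held 123, 67, 139, 135, 184, 394, 194 and 358 CPM of Ccl6 and 135, 106, 122, 124, 169, 422, 189 and 304 of Ccl9, again highest in replicates 6 to 8. All 8 of the latter were above all 3 young repopulated libraries for Ccl9 (1.05 ± 0.36, adjusted p = 0.382), and 7 of 8 for Ccl6 (1.36 ± 0.40, adjusted p = 0.38), with no call by edgeR over all libraries. Ccl6 was called there by DESeq2 (adjusted p = 0.0404), and both were called by voom (Ccl6 0.00572, Ccl9 0.00877) and by edgeR with the run of library numbers as a term (Ccl6 0.0346, Ccl9 0.037). Against young, old repopulated libraries differed by 0.69 ± 0.28 for Ccl6 (adjusted p = 0.102) and 0.27 ± 0.26 for Ccl9 (adjusted p = 0.518).

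Cxcl2, the neutrophil attractant, was higher in old repopulated than in young microglia. Young libraries held 74.4 to 174 CPM (median 119.9), young repopulated ones 113, 178 and 122, and old ones 133, 112, 92.5, 130.4 and 94.8. Old repopulated libraries held 74.6, 319.6, 101, 148, 117, 599, 325 and 491 CPM. Replicates 2, 6, 7 and 8 were above every young library and the other four were not. The difference from young was 1.10 ± 0.35 (log2, adjusted p = 0.0376), and that from old, 1.27 ± 0.40, was not called by edgeR (adjusted p = 0.185) but was by DESeq2 (1.26, adjusted p = 0.0353). The former call was kept in 15 of 23 fits without 1 library and lost without young replicates 1, 2, 4 or 7 or old repopulated replicates 2, 6, 7 or 8 (adjusted p up to 0.104). It was also lost for Cxcl2 in the fit of only those 2 groups (0.0708) and, barely, with upper-quartile scaling (0.0512). Without old repopulated replicates 6 to 8 the value was 0.26 (adjusted p = 0.67).

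Cxcl10, the interferon-induced ligand, had its lowest levels in the repopulated groups. Its level was 118 to 213 CPM (median 188) in young libraries, 86.3, 65.9 and 87.8 in young repopulated, 202, 139, 96.4, 247 and 253 in old, and 69.2, 37.4, 98.3, 105, 65.7, 125, 147 and 146 in old repopulated libraries. All 3 young repopulated libraries and 5 of 8 old repopulated ones were below all young libraries. In old repopulated against young libraries Cxcl10 fell by 0.83 ± 0.24 on the log2 scale (adjusted p = 0.0237), a call lost without young replicate 2 (adjusted p = 0.0524). Neither young repopulated against young (-1.14 ± 0.34, adjusted p = 0.0994) nor old repopulated against old (-0.92 ± 0.26, adjusted p = 0.137) was called with edgeR. DESeq2 called both for Cxcl10 (adjusted p = 0.0134 and 0.0324), and without old repopulated replicate 2 edgeR called the former (0.0447). Old against young gave 0.08 ± 0.27.

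Among 18 other interferon-stimulated genes, 4 (Ifit2, Ifit3, Stat2 and Xaf1) fell and 0 rose in old repopulated against old libraries, with all 18 lower and a median of -1.08 on the log2 scale. Of all genes 0.278% were called there. In old against young libraries 2 of the 18 (Ifitm3 and Cmpk2) rose, with all 18 higher and a median of 0.81, beside 2.83% of all genes. In young repopulated against young libraries 0 of these 18 were called, with a median of -0.02. Their summed level was 1028 to 1859 CPM in young, 1481 to 4071 in old and 565 to 1880 in old repopulated libraries. Old libraries of numbers 1 to 11 held 1481 to 1672 CPM and those of 12 to 24 held 2065 to 4071.

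Cxcl16, the membrane-bound ligand, was higher in old and in old repopulated than in young microglia. Young libraries held 169 to 252 CPM (median 231), young repopulated ones 271, 309.9 and 249, old ones 252, 266, 395, 289.7 and 398, and old repopulated ones 216 to 372 (median 323). All 5 old libraries and 7 of 8 old repopulated ones were above all young ones, with the lowest old library close to the highest young one. Several markers of monocytes, neutrophils and border-associated macrophages rose in both comparisons, by the counts given above. The rise of Cxcl16 was 0.53 ± 0.14 (log2, adjusted p = 0.0373) in old and 0.48 ± 0.12 (adjusted p = 0.0117) in old repopulated against young libraries. Old repopulated against old gave -0.05 ± 0.13 (adjusted p = 0.96). Old repopulated against young repopulated gave 0.16 ± 0.16 (adjusted p = 0.69) and young repopulated against young 0.32 ± 0.16 (0.357), neither called by edgeR over all libraries. The Cxcl16 call in old repopulated libraries held in all 23 fits without 1 library. It was not made within library numbers 1 to 11 (0.55, adjusted p = 0.374) or without the old repopulated libraries of numbers 12 to 24 (0.40, adjusted p = 0.0975). The call in old libraries held in 15 of 23 fits and was lost without old replicate 3 (adjusted p = 0.2) or 5 (0.15), and without young replicate 1 (0.0724), 2 (0.07), 4 (0.0514), 5 (0.0651), 6 (0.0522) or 7 (0.0664).

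The runs of library numbers separated several ligands within the old repopulated group itself. Libraries of numbers 12 to 24 (n = 3) were higher than those of 1 to 11 (n = 5) by 1.96 ± 0.18 (log2, adjusted p = 7.1e-06) for Ccl2, 3.82 ± 0.51 (0.000498) for Ccl7, 1.22 ± 0.23 (0.00254) for Ccl9, 1.28 ± 0.27 (0.00478) for Ccl6, 1.64 ± 0.35 (0.00455) for Cxcl2 and 0.89 ± 0.28 (0.0366) for Cxcl10. Thus 6 of the 10 ligands were called in this edgeR fit, beside 17.1% of all genes, and Ccl3, Ccl4, Ccl12 and Cxcl16 were not. The log2 value against young libraries was itself more positive in the higher than in the lower numbers for 4 ligands. By edgeR this gap between the runs was called for Ccl2 (2.51 ± 0.26, adjusted p = 0.000139), Ccl7 (4.16 ± 0.74, 0.0216), Ccl9 (1.51 ± 0.34, 0.0405) and Ccl6 (1.68 ± 0.4, 0.0445), beside 1.26% of all genes. In numbers 1 to 11 old repopulated libraries had lower means than young ones for Ccl2 (65.6 against 76.9 CPM) and Ccl6 (129.8 against 144). The same held for Ccl9 (131 against 182 CPM), while Ccl7 was higher (13.1 against 9.93). For Cxcl2 the gap between the runs was 1.37 ± 0.51 (adjusted p = 0.133).

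Some lists of cell markers, though not all, moved with those 3 libraries. In old repopulated libraries of numbers 12 to 24 the monocyte markers summed to 885 to 2872 CPM and the border-associated macrophage markers to 641 to 1188, against 118 to 1354 and 70.9 to 765 in numbers 1 to 11. Microglia markers summed to 7097 to 11151 CPM in the former and 11380 to 22820 in the latter. The summed neutrophil markers were not higher in the former, at 265 to 521 against 316 to 698 CPM. The summed immediate early genes, which are transcribed within minutes of a stimulus, were at 8202 to 9400 against 8800 to 22419 CPM. The part of any of these in the ligands' values was not tested.

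**Figure D3:**
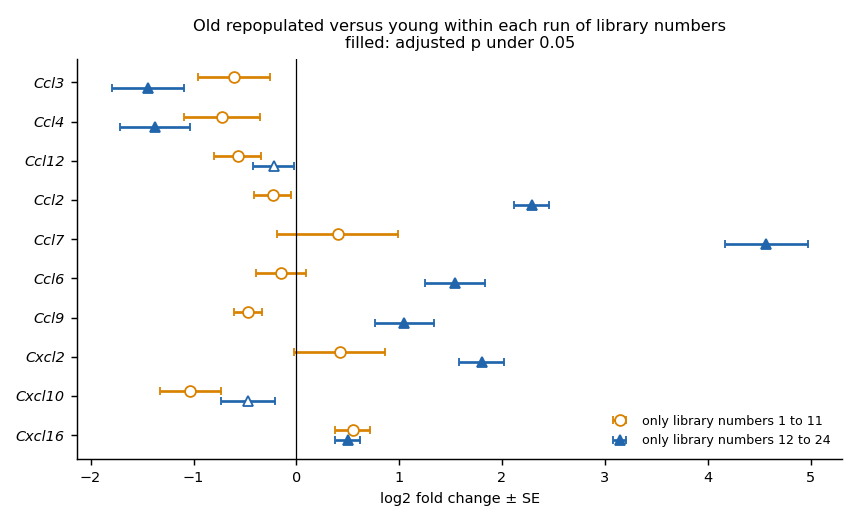
Log2 fold changes with standard errors (x axis) of old repopulated against young libraries for the 10 ligands (y axis), fitted within library numbers 1 to 11 (circles) and 12 to 24 (triangles), filled where the adjusted p is under 0.05. Ccl2, Ccl7, Ccl6 and Ccl9 lie far apart between the runs, while Cxcl16 stands at 0.55 and 0.50.

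Each run was also fitted alone. Within numbers 12 to 24, 8 ligands were called for old repopulated against young, where 41.1% of 17186 genes were: Ccl7 (4.57 ± 0.40), Ccl2 (2.29 ± 0.17), Cxcl2 (1.80 ± 0.22), Ccl6 (1.54 ± 0.29), Ccl9 (1.05 ± 0.29) and Cxcl16 (0.50 ± 0.12) rose, and Ccl3 (-1.44 ± 0.35) and Ccl4 (-1.37 ± 0.34) fell. Cxcl10, called over all libraries, was not called there (-0.47 ± 0.26, adjusted p = 0.167). Within numbers 1 to 11, edgeR called 0 ligands and 0.0107% of genes, and the Ccl2 value was -0.23 ± 0.18 (adjusted p = 0.685). There 4 ligands had an unadjusted p under 0.05, with Ccl9, Ccl12 and Cxcl10 lower and Cxcl16 higher in old repopulated libraries. For Ccl9 this direction was opposite to its rise within 12 to 24.

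Against old libraries of the same numbers, 12 to 24, old repopulated libraries had 5 ligands called, beside 12.7% of genes: Cxcl2 (2.15 ± 0.24), Ccl7 (1.92 ± 0.40) and Ccl2 (1.37 ± 0.19) rose, and Ccl3 (-1.31 ± 0.36) and Ccl4 (-1.26 ± 0.35) fell. Against young repopulated libraries 6 were called, all higher in old repopulated ones, beside 36.3% of genes: Ccl7 (3.61 ± 0.43), Ccl2 (2.14 ± 0.19), Ccl6 (2.00 ± 0.32), Cxcl2 (1.75 ± 0.24), Ccl9 (1.66 ± 0.32) and Cxcl10 (0.78 ± 0.27). For old against young, 4 rose (Ccl7 2.66 ± 0.38, Ccl2 0.91 ± 0.17, Ccl6 0.91 ± 0.29 and Cxcl16 0.61 ± 0.12), beside 15.7% of genes. For young repopulated against young 1 fell, Cxcl10 (-1.25 ± 0.26, adjusted p = 0.0125), beside 9.3% of genes. The repopulation effect was greater in old than in young mice there for Cxcl2 (2.10 ± 0.32, adjusted p = 0.00938) and Ccl2 (1.22 ± 0.26, adjusted p = 0.0176), the 2 ligands called in the interaction, beside 8.87% of genes. Without the old repopulated libraries of these numbers the interaction was 0.31 for Cxcl2 and -0.37 for Ccl2, neither called.

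Within groups, some ligands varied together in sets. The share of related pairs among other genes was not computed, so these counts do not set the ligands apart. Some genes outside the ligands were as close to a ligand, as given further below. As Pearson correlations of log2 CPM deviations from the group mean over 23 libraries, tested by permutation within groups with 85 relations adjusted together, 10 of the 45 ligand pairs had an adjusted p under 0.05, all positive. The closest was Ccl3 with Ccl4 (r = 0.98, p = 1e-05, the smallest the permutations can give, adjusted p = 0.000212; Spearman's rho = 0.99, p = 1e-05; r = 0.97 without the 2 libraries farthest from the median of Ccl3). It was 0.98 within library numbers 1 to 11 and 0.99 within 12 to 24. The log2 ratio of Ccl3 to Ccl4 TPM stayed between -0.17 and 0.38 over all libraries, with a mean of 0.02 ± 0.12 (SD, n = 23). A gap of 13.2 kb separates both genes on chromosome 11. Estimated counts divide reads that fit several genes, and how far relatives among the ligands shared reads was not tested.

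Ccl12 followed Ccl4 (r = 0.79, permutation p = 0.00058, adjusted p = 0.00425; rho = 0.65, p = 0.0057; 0.66 without the 2 farthest libraries) and Ccl3 (r = 0.73, permutation p = 0.002, adjusted p = 0.0113; rho = 0.65, p = 0.00622; 0.62 without 2). Within the runs the values were higher, 0.91 and 0.87 for Ccl4 and 0.92 and 0.86 for Ccl3. Cxcl10 followed Ccl12 (r = 0.61, permutation p = 0.0125, adjusted p = 0.0483; rho = 0.48, p = 0.0462, adjusted 0.136; 0.41 without 2 libraries), a relation that depended on the farthest libraries over all samples but stood at 0.82 and 0.81 within the runs. Ccl6 and Ccl9 formed another pair (r = 0.93, permutation p = 1e-05, adjusted p = 0.000212; rho = 0.88, p = 2e-05; 0.94 without 2; 0.83 and 0.95 within the runs).

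The remaining pairs joined Ccl2, Ccl6, Ccl7 and Ccl9, whose old repopulated values fell into separate sets by run, so only values within runs are given. For Ccl2 with Ccl9 r was 0.85 in library numbers 1 to 11 (n = 10) and 0.74 in 12 to 24 (n = 13), for Ccl2 with Ccl7 0.52 and 0.77, for Ccl2 with Ccl6 0.58 and 0.72, for Ccl6 with Ccl7 0.45 and 0.71, and for Ccl7 with Ccl9 0.55 and 0.62. After centring on group and run, Ccl2 with Ccl9 was called (permutation, adjusted p = 0.0314) and the others were not (adjusted p from 0.112 to 0.177). In all, 9 pairs were called after this centring, 6 of them among the first 10. The others were Ccl3 with Cxcl10 (0.76, permutation, adjusted p = 0.0481), Ccl4 with Cxcl10 (0.81, 0.0314) and, the single negative pair, Ccl3 with Cxcl16 (-0.68, 0.0314; -0.74 and -0.62 within the runs).

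**Figure D4:**
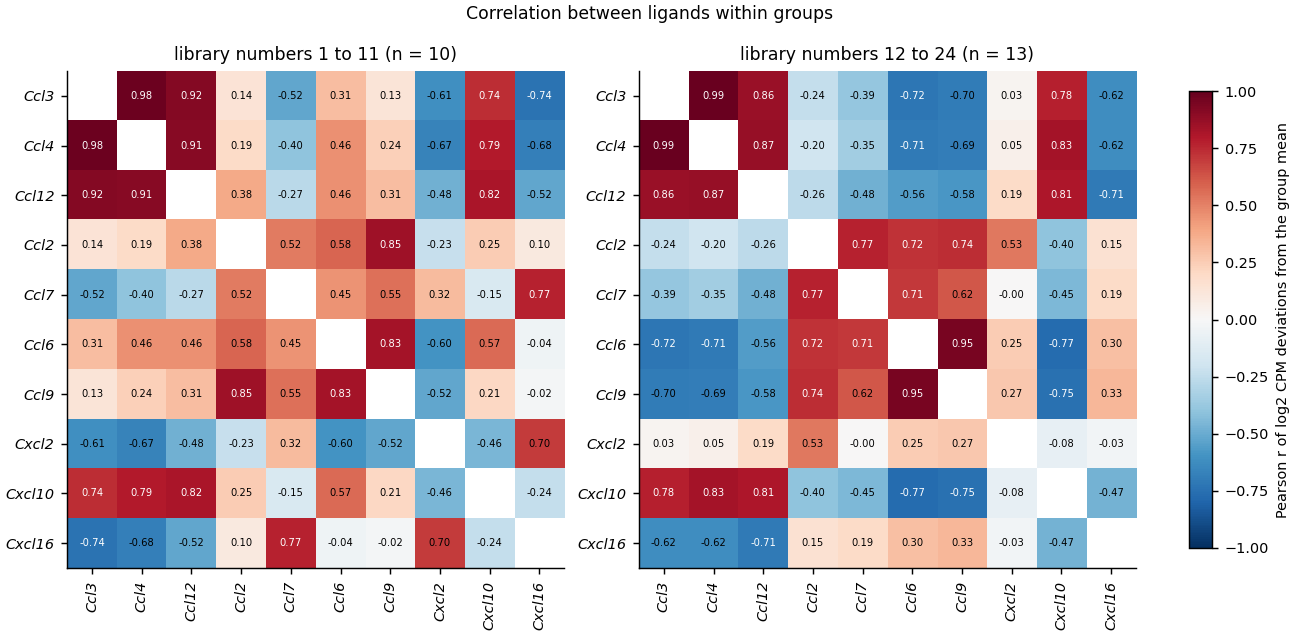
Pearson r (colour, from -1 to 1, and printed) of log2 CPM deviations from the group mean for each pair of the 10 ligands, within library numbers 1 to 11 (left) and 12 to 24 (right). Ccl3, Ccl4, Ccl12 and Cxcl10 are positively correlated with each other in both panels (0.74 to 0.99), as are Ccl6 and Ccl9 (0.83 and 0.95).

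Ccl3, Ccl4 and Ccl12 also varied with the immediate early genes, 18 transcription factors and regulators such as Fos, Egr1 and Atf3. Against their mean, Ccl3 gave r = 0.84 (permutation p = 2e-05, adjusted p = 0.00034; rho = 0.82, p = 0.00017; 0.82 without 2 libraries; 0.94 and 0.88 within the runs). Ccl4 gave 0.80 (permutation p = 0.00017, adjusted p = 0.00181; rho = 0.84, p = 9e-05; 0.80 without 2; 0.91 and 0.90) and Ccl12 0.62 (permutation p = 0.00753, adjusted p = 0.032; rho = 0.63, p = 0.00585; 0.56 without 2; 0.81 and 0.78). Cxcl16 went the other way, at -0.70 (permutation p = 0.00166, adjusted p = 0.0101; rho = -0.61, p = 0.00727; -0.53 without 2; -0.86 and -0.57). Cxcl2 was negative as well, at -0.68 (permutation p = 0.00357, adjusted p = 0.0178; rho = -0.63, p = 0.00783; -0.55 without 2), but this was -0.68 in the lower and -0.00 in the higher library numbers and was not called after centring on run (adjusted p = 0.206). Cxcl10 gave 0.02 over all libraries (permutation, adjusted p = 0.948). It stood at 0.51 and 0.74 within the runs and was not called after centring on run (0.60, adjusted p = 0.177). Of the 18 immediate early genes, 0 were called in each of the 6 comparisons over all libraries. Their median log2 value for old repopulated against young was -0.23, with 14 of 18 lower.

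Cxcl16 further rose and fell with the mean of the monocyte and neutrophil markers (r = 0.70, permutation p = 0.0006, adjusted p = 0.00425; rho = 0.72, p = 0.00051; 0.61 without 2; 0.78 and 0.60 within the runs). Ccl2 (r = 0.58), Ccl6 (0.60), Ccl7 (0.68), Ccl9 (0.64) and Cxcl2 (0.62) were also called with this mean over all libraries (permutation, adjusted p from 0.0017 to 0.0182). After centring on run these were not called (adjusted p from 0.173 to 0.51), while Cxcl16 was (0.70, adjusted p = 0.0138). Within the runs Ccl2 stood at -0.08 and 0.54, Ccl6 at 0.07 and 0.58, Ccl7 at 0.55 and 0.29, Ccl9 at -0.06 and 0.56, and Cxcl2 at 0.55 and 0.43. With the 16 NF-kB target genes no ligand had an adjusted p under 0.05 by permutation, the strongest being Cxcl10 (r = 0.52, adjusted p = 0.0717). Of those 16 genes 3 rose and 3 fell in old repopulated against young libraries, beside 15.2% of all genes called. With the interferon-stimulated genes Ccl6 alone was called (r = 0.64, permutation p = 0.0117, adjusted p = 0.0473; rho = 0.55, p = 0.0142, adjusted 0.067; 0.35 without 2 libraries), at 0.96 in the lower and 0.26 in the higher library numbers, and not after centring on run (adjusted p = 0.177). Cxcl10 gave 0.24 (permutation, adjusted p = 0.5), 0.55 in the lower and -0.45 in the higher library numbers.

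**Figure D5:**
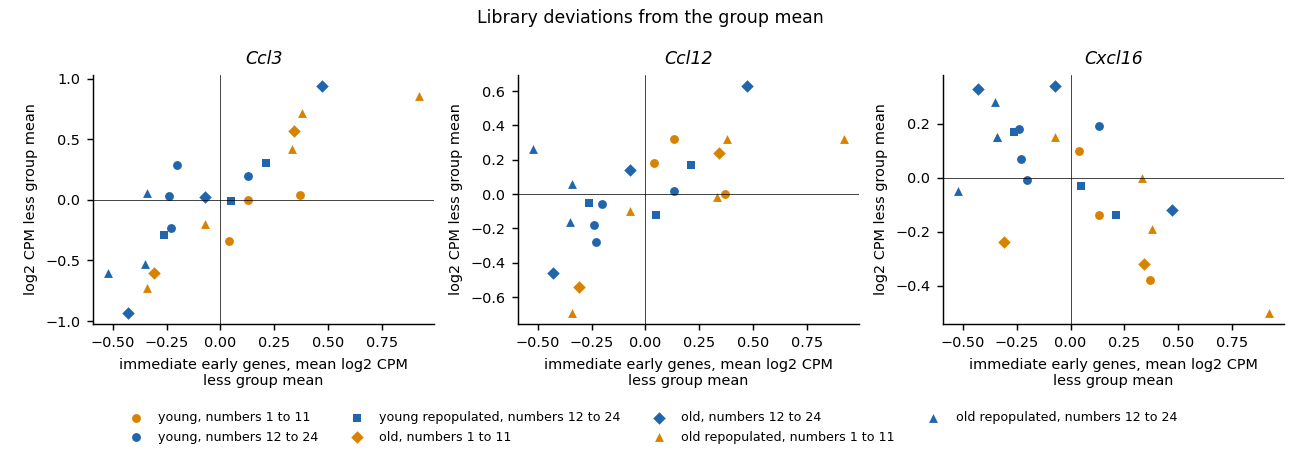
Log2 CPM less the group mean of Ccl3, Ccl12 and Cxcl16 (y axes) against that of the mean of the immediate early genes (x axes), 1 point per library, with shapes for the groups and colours for the runs of library numbers. Ccl3 (r = 0.84) and Ccl12 (0.62) run upward and Cxcl16 (-0.70) downward.

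Among 9465 genes with a mean of at least 5 CPM, the 3 whose deviations were most like a ligand's were named for each ligand. They included another ligand for Ccl2, Ccl3, Ccl4, Ccl6, Ccl9 and Ccl12, and no ligand for Ccl7, Cxcl2, Cxcl10 and Cxcl16. Beside Ccl4, Ccl3 was most like Zfp36 (r = 0.93), which promotes decay of cytokine mRNAs, and Pdgfb (0.92), a growth factor. Beside Ccl3, Ccl4 was most like Slc25a25 (0.92), a mitochondrial carrier, and Atf3 (0.91), a stress-induced transcription factor. Beside Ccl9, Ccl6 was most like Adprh (0.89) and Tiam1 (0.89), and beside Ccl6, Ccl9 was most like Foxp1 (0.91) and Rap1b (0.90). Ccl2 was most like Rap1b (0.92, but 0.67 after centring on run), a small GTPase, Ccl7 (0.90, then 0.61) and Btbd10 (0.88, then 0.61). Ccl7 was most like Glrx (0.95) and Eif4e (0.95), Cxcl2 like Nudt2 (0.91) and Nap1l1 (0.86), Cxcl10 like Taf15 (0.87) and Ccnd1 (0.86), Cxcl16 like Ints9 (0.90) and Got1 (0.87), and Ccl12 like Ccl4 (0.79) and Hectd2 (0.78). All of these r values are over the same 23 libraries and are given as a description.

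Of 27 other chemokine ligand genes, 18 could be tested. In old repopulated against young libraries 6 rose and 0 fell, beside 15.2% of all genes called: Cxcl14 (29.6 against 6.89 mean CPM, log2 2.10 ± 0.34, adjusted p = 0.000652, all 8 above all young), Cxcl13 (2.25 ± 0.39), the platelet factor Pf4 (2.45 ± 0.58), Cxcl1 (2.18 ± 0.59), Ccl22 (3.54 ± 0.74) and Ccl17 (4.53 ± 1.37). In old against young libraries Ccl22 (4.58 against 0.511 mean CPM, 3.16 ± 0.77, adjusted p = 0.0269) and Cxcl13 (2.14 ± 0.42, adjusted p = 0.0077) rose, beside 2.83% of all genes called. Ccl5, a T cell attractant, was called in young repopulated against young, at 46.1 against 8.04 mean CPM (2.52 ± 0.49, adjusted p = 0.0117, all 3 above all young). It was not called in the other comparisons. Ccl5 and Pf4 were the most abundant of these genes, at 155 ± 87.5 TPM in young repopulated and 151 ± 119 TPM in old repopulated libraries.

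Of 23 chemokine receptor genes, 19 could be tested, and Cx3cr1, the fractalkine receptor of microglia, was the most abundant (1369 ± 209 TPM in young libraries). In old against young 5 rose and 0 fell, beside 2.83% of all genes called: Ccr1 (2.81 ± 0.63), Ccr2 (3.93 ± 0.86), Ccr7 (3.77 ± 0.81), Cxcr2 (2.73 ± 0.64) and Cxcr4 (2.63 ± 0.50). The receptors of Ccl6 and Ccl9, of Ccl2, Ccl7 and Ccl12, and of Cxcl2 are among these. Beside them 6 of 8 monocyte and 4 of 9 neutrophil markers rose in old against young libraries, and their part in the receptors' rise was not tested. In old repopulated against young, where 15.2% of all genes were called, those 5 rose, and those that fell included Ccr3 and the scavenging receptor Ackr3 (-3.26 ± 0.65). Ccr2, which marks monocytes, stood at 12.4 mean CPM in young, 189 in old and 178 in old repopulated libraries. Cxcr3 (0.44 ± 0.307 TPM in young) and Cxcr6 (0.236 ± 0.169 TPM), the receptors of Cxcl10 and Cxcl16, were near 0 in all groups, at mean levels up to 1.22 and 0.24 TPM.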

How the data were processed

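Poly(A) RNA sequencing of microglia gave 1 table per library for 23 libraries, with stranded libraries from 2.4 to 147 ng of RNA read as single 50 nt reads, per the labels' protocols. The protocols describe both CD11b selection with culture and flow-sorted cells, and name sorted cells for the RNA. Per the submitters' processing notes, tools included FastQC 0.11.5, STAR, RSEM and limma with build GRCm38. The expected counts, estimates that need not be whole, were made by the authors with the column layout of RSEM per the file headers. The deposited TPM values, made by the authors in the same tables, served for levels between genes. Of the expected counts 87.26% were whole within 1e-06, and all were rounded.

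Counts were fitted with edgeR 4.0.16 (R 4.3.3; filterByExpr, TMM, quasi-likelihood test, all 23 libraries, 1 coefficient per group), with p-values adjusted over 18720 genes. CPM values are TMM-scaled, and means carry the SD and fold changes the SE. Relations used log2 CPM with a prior count of 2, permutation within groups (100000 resamples, two-sided) and adjustment over 85 relations. Positions are from GENCODE M21, in which all 10 identifiers matched with version. Alternatives were RLE or upper-quartile scaling, no filter, a minimum mean of 5 CPM, DESeq2 1.42.0, limma 3.58.1 voom, only the groups compared, the run as a term, each run alone, a prior count of 0.5, Spearman's rho and leaving out each library. Chosen after seeing the data were the fits without the old repopulated libraries of numbers 12 to 24, the tests between runs, and relations centred on run. The tests were tried on simulated data. Replicate numbers follow accession order and pair nothing. The members and gene lists were chosen with earlier results of these data known. All 10 ligands are named. Other ligands and receptors are named where called in a comparison or most abundant, and for each ligand up to 3 genes with the highest r and a mean of at least 5 CPM, without predicted genes. A receptor gene is not reported here. Lists also tested for endothelial, astrocyte, neuron and oligodendrocyte markers had at most 1 gene called in each direction per comparison.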

Additional observations from a re-analysis of the deposited data

Results flagged for a closer look

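Old replicate 3 lay far above the other 4 old libraries for Ccl6 (329 CPM) and for Ccl9 (357 CPM), and old repopulated replicate 2 lay far below the other 7 for Ccl12 (44.7 CPM). With 30 sets of 5 to 8 libraries examined, each 1 ligand in 1 group, 3 had such a far library, and chance alone gives about 1 in 20. The sets share libraries, and the far values of Ccl6 and Ccl9 came from the same library. They are thus not independent, and the count of 3 cannot be weighed against that rate. Within library numbers 12 to 24 the change with repopulation was greater in old than in young mice by 2.10 on the log2 scale for Cxcl2 and by 1.22 for Ccl2, by edgeR's test of the interaction (adjusted p = 0.00938 and 0.0176). Over all libraries the same test called neither (1.15, adjusted p = 0.649, and 0.69, adjusted p = 0.835). Without the old repopulated libraries of numbers 12 to 24 the values were 0.31 (adjusted p = 0.895) and -0.37 (adjusted p = 0.683).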

How the results depend on the processing

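Of 2010 refits of single ligand differences, 1923 stayed on the same side of the threshold, 46 gained a call and 40 lost one. Of the 1923, 60 were uncalled values that changed sign, in 24 of the 60 ligand comparisons, and 1 called value turned (Ccl2, old repopulated against young, -0.23 in library numbers 1 to 11). Counts of called ligands moved as follows, and the causes were not tested. Old against young (1 over all libraries) gave 2 with only the groups compared, 0 in numbers 1 to 11, 4 in 12 to 24, 3 without the old repopulated libraries of 12 to 24, and 0 to 1 without 1 library. Old repopulated against old (0) gave 2 with DESeq2, 5 in numbers 12 to 24 and 1 without those libraries. Young repopulated against young (0) gave 1 with DESeq2, 3 with voom, 1 with the run as a term, 5 with only the groups compared, 1 in numbers 12 to 24, and 0 to 1 without 1 library, the 1 (Cxcl10) without old repopulated replicate 2. Old repopulated against young (7) gave 5 with only the groups compared, 6 with upper-quartile scaling, 8 with voom, 0 in numbers 1 to 11, 8 in 12 to 24, 1 without the old repopulated libraries of 12 to 24, and 5 to 8 without 1 library. Old repopulated against young repopulated (0) gave 1 with DESeq2, 4 with voom, 2 with the run as a term and 6 in numbers 12 to 24, and the interaction (0) gave 2 there. Related ligand pairs (10) fell to 1 in numbers 1 to 11 and to 1 in 12 to 24, with fewer libraries, and ran from 9 to 18 without 1 library, the 18 without old repopulated replicate 2.

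Over all genes, calls for old against young (530) were 970 with DESeq2, 2363 with voom, 1 in numbers 1 to 11 and 2691 in 12 to 24, and 100 to 941 without 1 library. For old repopulated against old (52) they were 312, 413, 114 with the run as a term, 34 without the filter, 0 with only the groups compared, 0 in numbers 1 to 11, 2187 in 12 to 24, and 5 to 185 without 1 library. For young repopulated against young (251) they were 834, 2574, 1255 with only the groups compared, 165 without the filter, 1598 in numbers 12 to 24, and 33 to 407 without 1 library. For old repopulated against young (2847) they were 6646 with voom, 4585 with the run as a term, 2 and 7068 within the runs, 724 without the old repopulated libraries of 12 to 24, and 1955 to 4772 without 1 library. Old repopulated against young repopulated (0) gave 92, 3189, 846 with the run as a term and 6236 in numbers 12 to 24, and the interaction (0) gave 46, 151, 7 and 1524. Young repopulated libraries exist in numbers 12 to 24 alone, so their comparisons have no fit in 1 to 11. No paired analysis was possible because replicate numbers follow accession order and pair no libraries. The shallowest library held 43.66 M counts, and the lowest ligand value was 4.14 CPM (Ccl7).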
